A study of Mus musculus with 25 samples.

Results

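The 10 genes described here are Npas4, Arc, the 4 Egr genes (Egr1, Egr2, Egr3 and Egr4), the 3 Nr4a genes (Nr4a1, Nr4a2 and Nr4a3) and Btg2. They were taken by symbol from the gene counts of 25 mouse hippocampal RNA-seq libraries, which list 24421 symbols. All 10 passed the filter on low counts that left 15912 genes in the tests. The mice were wild type or heterozygous for a loss of Scn1a (Scn1a+/-, a mouse model of Dravet syndrome, a childhood epilepsy), and every library was made from hippocampi pooled over several mice. At postnatal day 14 (P14) the 129S6/SvEvTac strain gave 2 wild-type and 3 Scn1a+/- libraries, and the F1 offspring of 129S6/SvEvTac and C57BL/6 gave 3 wild-type and 3 Scn1a+/- libraries. At postnatal day 24 (P24) the 129S6 strain gave 3 libraries labelled wild type and 3 labelled Scn1a+/-, and F1 mice gave 3 wild-type and 2 Scn1a+/- libraries. A further 3 P24 F1 Scn1a+/- libraries came from mice recorded as having seizures. The seizure pools held 3 to 4 mice and all other pools 12 to 16, so pool size and seizure status cannot be told apart. The time between a seizure and tissue collection is not given in the sources used here.

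These are immediate early genes: synaptic activity and calcium entry switch them on within minutes, without new protein synthesis, mainly through the transcription factors CREB, SRF with its Elk partners, and MEF2. Npas4 and the Egr and Nr4a genes encode transcription factors that act on a later set of genes, Arc encodes a synaptic protein that promotes removal of AMPA receptors, and Btg2 encodes an antiproliferative factor that works with the mRNA deadenylation machinery. Seizures are a strong and widely used stimulus for these genes in the hippocampus, above all in dentate granule cells. Their transcripts are short lived, so a level reflects recent activity. In bulk tissue, more cells expressing a gene and more RNA per cell cannot be told apart.

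Promoter sequences are shown because CREB, SRF and the Egr proteins act there. RefSeq promoter windows (GRCm38.p6) matched 7 of the 10 genes, with 11 windows between them. Arc, Egr1 and Egr3 were not matched. The 250 bases before each start were searched on both strands for the cAMP response element (CRE, TGACGTCA, bound by CREB), its core TGACG (found inside every CRE), the CArG box bound by SRF, and an EGR site (GCGNGGGCG). Of 32851 windows of this length, 1.55% held a CRE, 17.8% a core, 1.47% a CArG box and 4.7% an EGR site. All 7 matched members held the core in at least 1 window, as did 5347 of 27025 genes. By window, 9 of their 11 held it. Only Btg2 among the 7 held the whole CRE, only Egr2 a CArG box, and 3 members (Nr4a1, Nr4a2 and Btg2) an EGR site. Of the 27025 genes, 478, 439 and 1440 held these in at least 1 window. A match is a description of the sequence and was not tested as a bound site. In the lines below capitals mark the CRE, the core and the CArG box, and each sequence reads 5′ to 3′ toward the start of its gene.
Npas4, chr19:4990128-4990157, minus strand: cgttcgaCGTCAcgggaTGACGtcggaagt
Egr2, chr10:67537619-67537868, plus strand: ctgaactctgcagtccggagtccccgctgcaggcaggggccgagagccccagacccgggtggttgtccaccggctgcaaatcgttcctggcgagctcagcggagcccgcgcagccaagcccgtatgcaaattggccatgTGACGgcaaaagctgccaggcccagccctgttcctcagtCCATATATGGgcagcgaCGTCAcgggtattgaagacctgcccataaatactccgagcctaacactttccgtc
Egr4, chr6:85513694-85513839, minus strand: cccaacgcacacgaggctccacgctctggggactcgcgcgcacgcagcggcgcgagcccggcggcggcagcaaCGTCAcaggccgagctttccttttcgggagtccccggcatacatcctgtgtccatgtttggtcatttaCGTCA
Nr4a1, chr15:101266596-101266775, plus strand: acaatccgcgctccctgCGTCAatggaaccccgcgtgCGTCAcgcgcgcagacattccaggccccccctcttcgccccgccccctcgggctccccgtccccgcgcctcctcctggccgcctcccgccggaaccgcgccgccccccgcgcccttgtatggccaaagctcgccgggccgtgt
Nr4a2, chr2:57124142-57124171, minus strand: gttatttatagcgccggctgcacgCGTCAc
Nr4a3, chr4:48045055-48045152, plus strand: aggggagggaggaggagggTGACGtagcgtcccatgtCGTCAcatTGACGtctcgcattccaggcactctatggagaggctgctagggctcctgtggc
Btg2, chr1:134079156-134079405, minus strand: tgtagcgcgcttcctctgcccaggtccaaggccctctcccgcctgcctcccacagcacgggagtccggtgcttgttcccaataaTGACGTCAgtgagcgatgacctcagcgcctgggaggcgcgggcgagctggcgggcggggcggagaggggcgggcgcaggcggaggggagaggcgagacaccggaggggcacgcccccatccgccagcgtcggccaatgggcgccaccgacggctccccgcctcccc
Each of the Npas4, Egr4, Nr4a1, Nr4a2 and Nr4a3 stretches is a part of its window. The whole windows of Nr4a1, Nr4a2 and Nr4a3 held 4 cores each, of which the stretches show 2, 1 and 3. Those of Npas4, Egr4 and Btg2 and the Egr2 window shown held 2 each. Of these 7 genes, all holding the core, Npas4, Egr2, Egr4 and Btg2 were called higher in the seizure libraries than in wild type below, and Nr4a1, Nr4a2 and Nr4a3 were not.

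Total gene counts ran from 7436442 to 25520050 per library. Scn1a itself, the targeted gene, was at 124 to 130 CPM (counts scaled to library size) in the 3 P24 F1 wild-type libraries, at 92.9 to 115 CPM in the 2 heterozygous pools without seizures and at 68.8 to 89.0 CPM in the 3 seizure libraries, with no overlap between these groups. In P24 129S6 mice it went against the labels: 135, 144 and 142 CPM in the libraries labelled Scn1a+/- and 110, 109 and 111 CPM in those labelled wild type. The names of the deposited count files give the opposite genotype for these 6 libraries, and the groups here follow the sample titles. The Scn1a levels go with the file names, as do the column names of the authors' normalized values. The seizure libraries also stood apart from each other, with a chi-square per degree of freedom between pairs of 18.3, 30.7 and 40.2 against 2.42 to 8.59 between all other replicate pairs. Across the 10 members the median SD between replicates was 0.29 on the log2 scale over all 25 libraries and 0.18 without the seizure libraries, against 0.14 and 0.12 over all genes tested.

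Levels per length were compared in P24 F1 wild-type libraries as CPM per kilobase of canonical transcript. Arc was the most abundant at 44.6, followed by Nr4a1 at 23.9, Egr3 at 20.5, Egr1 at 15.9, Nr4a3 at 15.7, Nr4a2 at 10.2 and Btg2 at 8.46. Egr4 at 4.06, Npas4 at 3.83 and Egr2 at 0.69 were the lowest. With the summed length of all annotated exons Nr4a1 fell to 5.57 and Btg2 to 3.71, so the places of those genes depend on the transcript assumed. Egr2 rested on 8 to 261 counts per library, while every other member had at least 83. Egr2 overlaps Gm32255 and Nr4a2 overlaps LOC105244150 in the RefSeq annotation, and whether counting used strand is not given in the sources used here. The overlaps are between whole gene spans, and their effect on the counts was not examined.

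**Figure D1:**
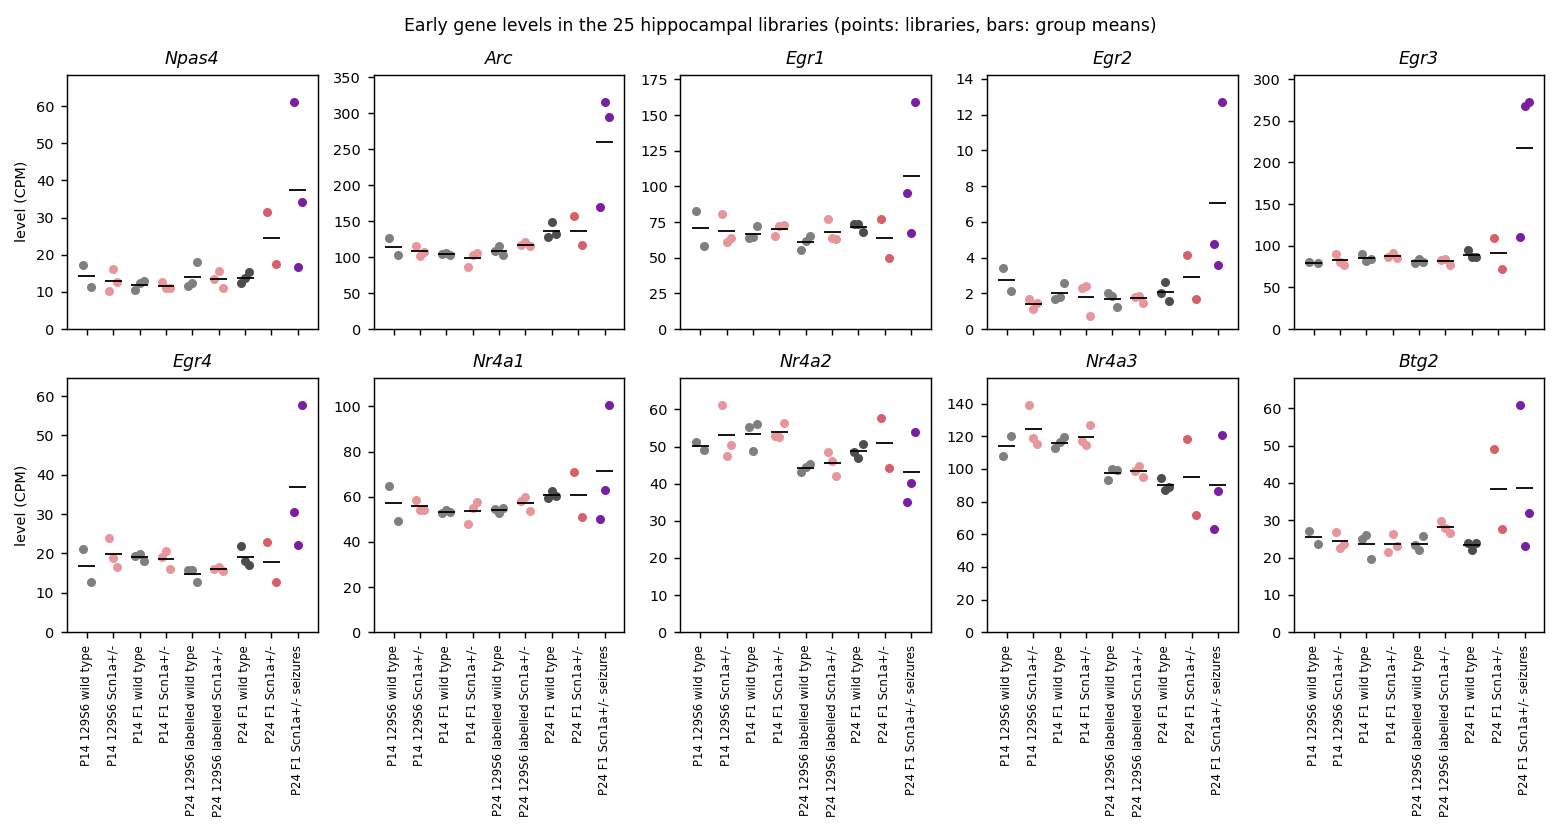
Level of each early gene (vertical axis, CPM, linear from 0) in the 9 groups (horizontal axis). Points are libraries and bars are group means. Outside the seizure group Arc stayed between 86.6 and 157 CPM and Egr3 between 72.0 and 110 CPM, while the seizure libraries reached 316 and 273 CPM.

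In the seizure libraries at P24, 7 of the 10 genes were higher than in F1 wild type: Npas4, Arc, all 4 Egr genes and Btg2. The log2 fold changes of the 7 ran from 0.59 for Egr1 to 1.76 for Egr2. None of the 3 Nr4a genes passed the test. Of all genes tested 22.5% passed an edgeR adjusted p of 0.05 in this comparison, with 12.4% of all genes called higher and 10.1% lower. The groups did not overlap for 5 of the 10 (Npas4, Arc, Egr2, Egr3 and Egr4), as for 31.4% of all genes. Fitted on these 6 libraries alone, 4 stayed called, where the share of all genes called was 10.4% instead of 22.5%. Egr1, Egr4 and Btg2 then had edgeR adjusted p-values of 0.153, 0.0587 and 0.123.

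Npas4 encodes a neuronal transcription factor that responds to calcium entry and shapes inhibitory synapses. It was at 61.2, 16.8 and 34.3 CPM in seizure replicates 1, 2 and 3 and at 12.3, 13.8 and 15.5 CPM in wild type. All 3 seizure libraries lay above wild type, but replicate 2 lay only just above. The log2 fold change was 1.44 ± 0.25 (SE; edgeR adjusted p = 6.7e-05).

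Arc, the synaptic effector among the 10, was at 169, 316 and 295 CPM in the seizure libraries and at 128, 149 and 132 CPM in wild type. Here replicate 1, the highest for Npas4, was the lowest of the 3. The groups did not overlap, and Arc had a log2 fold change of 0.93 ± 0.13 (SE; edgeR adjusted p = 2.2e-06).

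Egr1 encodes a zinc-finger factor widely used as a map of neuronal activity. It was at 95.4, 67.4 and 159 CPM in the seizure libraries against 73.3, 73.4 and 67.7 CPM in wild type. Replicate 2 was below every wild-type library and replicate 3 carried most of the rise. The log2 fold change was 0.59 ± 0.17 (SE; edgeR adjusted p = 0.0129). It was 0.17 (adjusted p = 0.325) without seizure replicate 3 and 0.54 (adjusted p = 0.0576) without wild-type replicate 3, and DESeq2 gave an adjusted p of 0.0571.

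Egr2 encodes the related factor that also drives Schwann cell myelination. It was at 4.76, 3.61 and 12.7 CPM in the seizure libraries and at 2.00, 2.61 and 1.56 CPM in wild type. The groups did not overlap, and replicate 3 was the highest of all 25 libraries. The log2 fold change was 1.76 ± 0.34 (SE; edgeR adjusted p = 2.3e-04), and 1.01 without seizure replicate 3.

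Egr3 lies downstream of strong synaptic activation and, with Egr1, regulates Arc. It was at 110, 268 and 273 CPM in the seizure libraries and at 94.8, 86.2 and 86.1 CPM in wild type. Replicates 2 and 3 stood far above wild type and replicate 1 only just above. Egr3 had a log2 fold change of 1.28 ± 0.17 (SE; edgeR adjusted p = 8.7e-07).

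Egr4, the least studied of the family, was at 30.6, 22.1 and 57.8 CPM in the seizure libraries and at 21.9, 18.0 and 17.1 CPM in wild type. Replicate 2 was barely above the highest wild-type library. Egr4 had a log2 fold change of 0.95 ± 0.21 (SE; edgeR adjusted p = 9.9e-04), and 0.46 (adjusted p = 0.0268) without seizure replicate 3.

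The Nr4a genes encode orphan nuclear receptors that bind DNA without a known natural ligand and are linked to memory and metabolism. Nr4a1 was at 50.1, 63.1 and 101 CPM in the seizure libraries and at 59.4, 62.7 and 60.2 CPM in wild type. Nr4a2, which also maintains dopamine neurons, was at 35.2, 40.2 and 53.8 CPM against 48.5, 47.0 and 50.7 CPM. Nr4a3 was at 63.0, 86.3 and 121 CPM against 94.2, 87.1 and 88.7 CPM. For each of the 3, replicate 1 was below every wild-type library and replicate 3 above every one. The log2 fold changes were 0.23 ± 0.14, -0.18 ± 0.11 and 0.00 ± 0.14 (SE), with edgeR adjusted p-values of 0.256, 0.250 and 0.999. Single libraries changed these calls: Nr4a1 was at 0.42 (adjusted p = 0.0122) without seizure replicate 1, and Nr4a2 and Nr4a3 were at -0.38 (adjusted p = 0.00146) and -0.28 (adjusted p = 0.04998) without replicate 3.

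Btg2 was at 60.9, 23.1 and 31.9 CPM in the seizure libraries and at 23.8, 22.0 and 23.9 CPM in wild type. Replicate 2 lay inside the wild-type range and replicate 1 was the highest of all 25 libraries. Btg2 had a log2 fold change of 0.74 ± 0.20 (SE; edgeR adjusted p = 0.00547), and 0.23 (adjusted p = 0.291) without replicate 1.

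The 3 seizure libraries therefore differed in which early genes were high. Replicate 1 was 4.41-fold the wild-type mean for Npas4 and 2.62-fold for Btg2, but 1.24-fold for both Arc and Egr3. Replicate 2 was 2.32-fold for Arc and 3.01-fold for Egr3, but 1.21-fold for Npas4 and 0.99-fold for Btg2. Replicate 3 was above every wild-type library for all 10 genes, from 1.10-fold for Nr4a2 to 6.18-fold for Egr2. Replicate 1 was above the wild-type range for 7 genes and below it for the 3 Nr4a genes, while replicate 2 was above it for 6 and below it for 3 (Egr1, Nr4a2 and Nr4a3). Against the 22 libraries outside the seizure group, replicates 1 and 3 each exceeded every library for 7 genes and replicate 2 for 2. Only for Arc and Egr3 were all 3 seizure libraries above all 22 others. For Egr3 the lowest seizure library was at 109.96 CPM and the highest other library at 109.63 CPM. The share of all genes with these patterns was not computed, so the counts only describe the 10 genes.

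**Figure D2:**
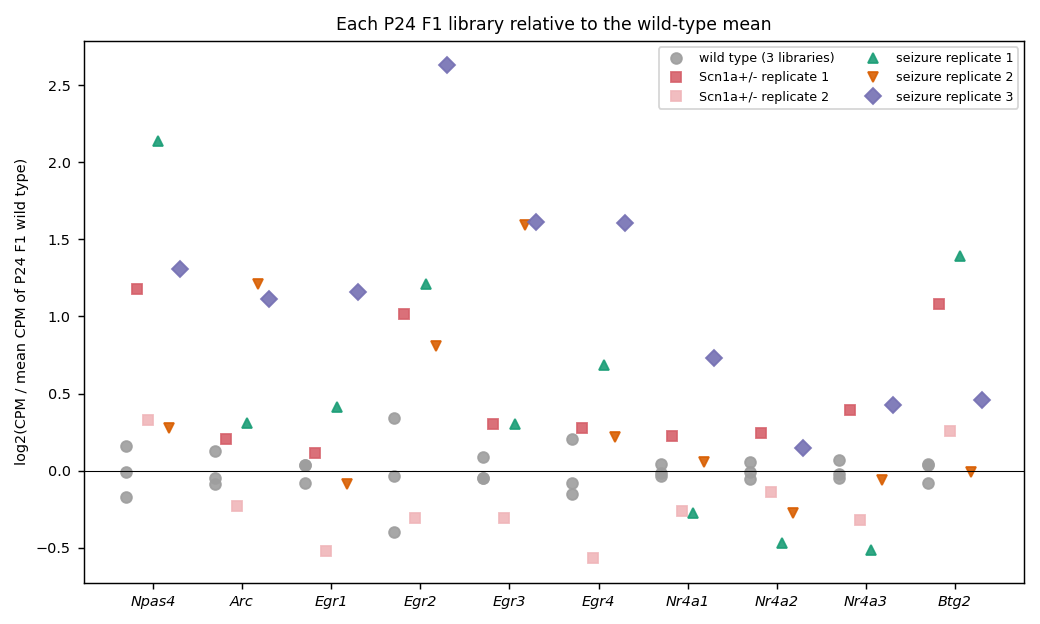
Level of each early gene in the 8 P24 F1 libraries as log2 of the ratio to the wild-type mean (vertical axis; 0 is the wild-type mean), with 1 point per library. Seizure replicate 1 is highest for Npas4 (2.14) and Btg2 (1.39), replicate 2 is high for Arc (1.21) and Egr3 (1.59), and replicate 3 is highest for Egr2 (2.63) and Egr4 (1.60).

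The AP-1 genes Fos and Fosb, induced by the same stimuli, were raised in every seizure library. Fos was at 62.7, 36.7 and 59.7 CPM against 9.03 to 10.8 CPM in wild type, and Fosb at 35.7, 41.4 and 72.4 CPM against 4.26 to 5.52 CPM. Seizure replicate 2 was thus 3.71-fold the wild-type mean for Fos and 8.29-fold for Fosb while it was 1.21-fold for Npas4.

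Relative to Scn1a+/- mice without recorded seizures, 5 of the 10 genes were higher in the seizure libraries: Arc and the 4 Egr genes. Npas4, Btg2 and the Nr4a genes did not pass the test. The background was 15.7% of genes called, with 8.72% of all genes called higher and 7% lower. This comparison shares the seizure libraries with the preceding one, so the shared calls are not independent. The 2 Scn1a+/- libraries differed from each other, with replicate 1 higher than replicate 2 for 10 of 10 genes. Over all genes this pair had a chi-square per degree of freedom of 8.59, the highest outside the seizure group. The share of all genes higher in replicate 1 was not computed.

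Arc was at 157 and 116 CPM in the Scn1a+/- libraries, below all seizure libraries, with a log2 fold change of 0.93 ± 0.15 (SE; edgeR adjusted p = 3.2e-05). Egr3 was at 110 and 72.0 CPM, and its log2 fold change was 1.26 ± 0.20 (SE; edgeR adjusted p = 2.2e-05). Scn1a+/- replicate 1 and seizure replicate 1 were at almost the same Egr3 level, 109.6 and 110.0 CPM. These 2 genes were the only members whose groups did not overlap, where 32% of all genes had no overlap.

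Egr1 was at 77.4 and 49.9 CPM, Egr2 at 4.16 and 1.67 CPM and Egr4 at 23.0 and 12.8 CPM in the Scn1a+/- libraries. For each of the 3, at least 1 seizure library was below Scn1a+/- replicate 1. The log2 fold changes were 0.77 ± 0.20, 1.34 ± 0.41 and 1.07 ± 0.25 (SE), with edgeR adjusted p-values of 0.00750, 0.0203 and 0.00280. All 3 calls were lost without Scn1a+/- replicate 2, at 0.46, 0.75 and 0.67 (adjusted p = 0.276, 0.398 and 0.190), and in a fit of these 5 libraries alone (adjusted p = 0.153, 0.156 and 0.0791). In the fit of 5 libraries 4.05% of all genes were called. Egr1 and Egr2 were also lost without seizure replicate 3, at 0.36 and 0.59 (adjusted p = 0.0801 and 0.267).

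Npas4 was at 31.4 and 17.4 CPM in the Scn1a+/- libraries, each above all wild-type libraries and above seizure replicate 2. Its log2 fold change was 0.65 ± 0.29 (SE; edgeR adjusted p = 0.133), and 1.00 (adjusted p = 0.00120) without seizure replicate 2. With no filter on low counts Npas4 was called, at 0.65 (adjusted p = 0.00276). Btg2 was at 49.1 and 27.8 CPM, with equal group means of 38.4 and 38.6 CPM and a log2 fold change of 0.03 ± 0.22 (SE; edgeR adjusted p = 0.948). Without seizure replicate 1 it was lower in the seizure group, at -0.47 (adjusted p = 0.0427). Nr4a1, Nr4a2 and Nr4a3 were at 0.24 ± 0.16, -0.24 ± 0.12 and -0.07 ± 0.16 (SE; edgeR adjusted p = 0.364, 0.213 and 0.836). Nr4a1 was called without seizure replicate 1, at 0.43 (adjusted p = 0.0277), and Nr4a2 and Nr4a3 were called lower without replicate 3, at -0.44 and -0.35 (adjusted p = 0.00222 and 0.0472).

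**Figure D3:**
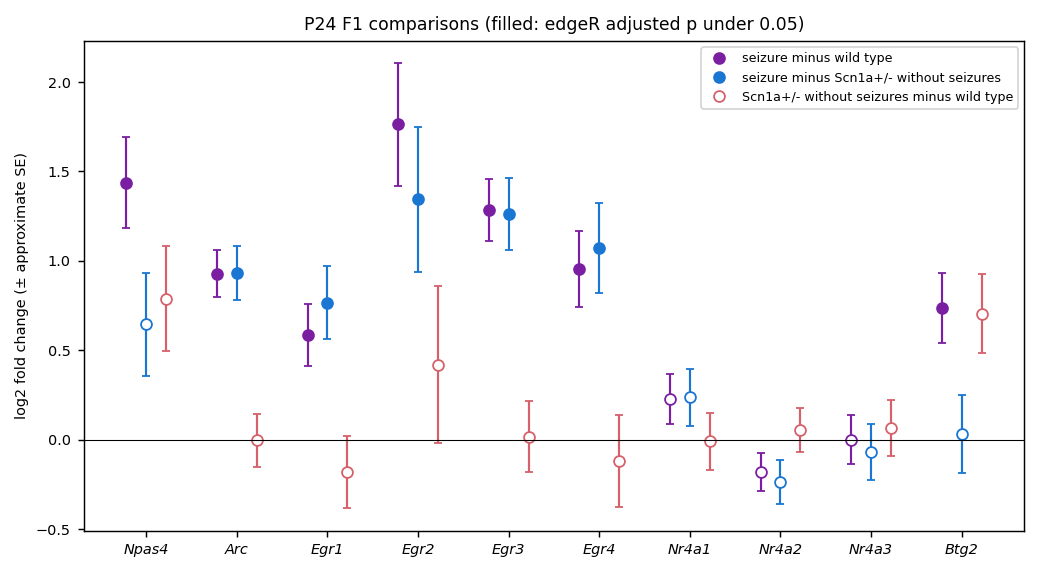
Log2 fold change of each early gene in the 3 P24 F1 comparisons (vertical axis; error bars are approximate SE; filled points passed an edgeR adjusted p of 0.05). Arc, Egr1, Egr2, Egr3 and Egr4 are filled against both reference groups, Npas4 and Btg2 against wild type only, and no Nr4a gene is filled.

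Without recorded seizures, no member passed the test between Scn1a+/- and wild-type mice in the fit to all 25 libraries, where 0% of the 15912 genes passed in P24 F1 (889, or 5.59%, at an unadjusted p under 0.05, and 0 with DESeq2). The largest differences were those of Npas4 and Btg2, at 0.79 ± 0.30 and 0.71 ± 0.22 (SE; edgeR adjusted p = 0.833 for both). Both Scn1a+/- libraries were above all 3 wild-type libraries for these 2 genes and for no other member, where 29.1% of all genes had no overlap. Scn1a+/- replicate 1 was above the whole wild-type range for 10 genes, whereas replicate 2 was above it for 2 and below it for 7. Replicate 1 was also the highest of the 22 libraries outside the seizure group for 6 genes (Npas4, Arc, Egr2, Egr3, Nr4a1 and Btg2). How many of all genes took these positions was not computed. Replicate 1 was the shallower of the 2, with a total of 11606720 counts against 17813918. Fosb followed the same order, at 22.0 and 5.61 CPM, and Fos at 23.1 and 10.4 CPM.

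A fit without the seizure libraries gave other calls. There, Npas4 was called at 0.78 (adjusted p = 0.0153) and Btg2 at 0.70 (adjusted p = 0.00559), among 200 genes called in all. Without Scn1a+/- replicate 1 as well, a setting chosen after seeing the data, neither was called. Egr1, Egr3 and Nr4a3 were then called lower, at -0.51, -0.30 and -0.32 (adjusted p = 0.00821, 0.0250 and 0.0209), from the single Scn1a+/- library left, so their p-values take the spread from other groups.

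In the other 3 genotype comparisons no member passed, and 0% of genes did in each (471, 724 and 391 of 15912, or 2.96%, 4.55% and 2.46%, at an unadjusted p under 0.05 in P24 129S6, P14 F1 and P14 129S6). In P24 129S6 mice, Btg2 was at 29.8, 27.9 and 26.7 CPM in the libraries labelled Scn1a+/- and at 23.3, 22.1 and 25.8 CPM in those labelled wild type. Arc was at 116.7, 120.6 and 115.2 CPM against 109.2, 115.0 and 102.7 CPM. For both genes the groups did not overlap, as for 10.7% of genes, but the fitted differences of 0.25 ± 0.21 and 0.11 ± 0.14 (SE; edgeR adjusted p = 1.00 for both) did not pass. By the file names, with which the Scn1a levels go, the direction would be the reverse.

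At P14 the F1 genotypes overlapped for all 10 genes, where 12.7% of all genes had no overlap, with log2 fold changes from -0.18 (Egr2) to 0.06 (Egr1). In P14 129S6 mice, Egr2 was at 1.69, 1.11 and 1.45 CPM in Scn1a+/- and at 3.39 and 2.15 CPM in wild type, without overlap, as for 19% of genes. That difference, -0.97 ± 0.47 (SE; edgeR adjusted p = 1), rested on 14 to 54 counts a library. Wild-type replicate 1 was the higher of its pair for 9 of 10 genes and Scn1a+/- replicate 1 the highest of its 3 for 9. The share of all genes in these orders was not computed.

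None of the 10 genes passed the test between strains, where 3.7% of genes passed at P14 and 6.33% at P24 (F1 minus 129S6, both genotypes without seizures averaged). At P14 the differences ran from -0.21 (Npas4) to 0.09 (Egr3). At P24 Arc was at 116 to 157 CPM in 5 F1 libraries and at 103 to 121 CPM in 6 129S6 libraries, a difference of 0.27 ± 0.10 (SE; edgeR adjusted p = 0.111), and Npas4 differed by 0.43 ± 0.21 (SE; edgeR adjusted p = 0.243). Without the seizure libraries in the fit both were called, at 0.27 (adjusted p = 5.1e-04) and 0.44 (adjusted p = 0.0109).

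With age, Arc and Npas4 rose and Nr4a3 fell in F1 mice, and Nr4a3 fell in 129S6 mice. The other 7 members in F1 and 9 in 129S6 did not pass. Of these, Nr4a2 in 129S6 was at -0.20 ± 0.08 (SE; edgeR adjusted p = 0.0628) and Nr4a1 in F1 at 0.18 ± 0.11 (SE; edgeR adjusted p = 0.205). Without the seizure libraries in the fit both were called, at -0.21 (adjusted p = 0.00483) and 0.18 (adjusted p = 0.0178), and Nr4a2 was also called with no filter (adjusted p = 0.0159) and with library totals only (adjusted p = 0.0212). Of all genes, 38.4% were called in F1 (19% higher and 19.4% lower) and 34.3% in 129S6 (17.3% higher and 17.1% lower), against 3 of 10 and 1 of 10 members. Of the 10 dentate granule cell markers, 8 rose and 0 fell with age in F1, and 9 rose and 1 fell in 129S6. Their part in the age differences was not tested.

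Arc in F1 mice was at 105, 105 and 103 CPM (wild type) and 86.6, 102 and 106 CPM (Scn1a+/-) at P14, and at 116 to 157 CPM at P24. The ages did not overlap, as for 24.9% of genes, and the log2 fold change was 0.43 ± 0.10 (SE; edgeR adjusted p = 0.00103). In 129S6 mice it was 0.03 ± 0.10 (SE; edgeR adjusted p = 0.872). The difference between strains, 0.40 ± 0.14 (SE), had an adjusted p of 0.513 where 0.00628% of genes passed. It had one of 0.0149 when the seizure libraries were left out of the fit.

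Nr4a3 in F1 mice was at 113, 116 and 120 CPM (wild type) and 117, 115 and 127 CPM (Scn1a+/-) at P14. At P24 it was at 94.2, 87.1 and 88.7 CPM in wild type and at 118 and 72.1 CPM in Scn1a+/-. Only Scn1a+/- replicate 1 reached the P14 range. The log2 fold change was -0.36 ± 0.11 (SE; edgeR adjusted p = 0.00766), and -0.19 (adjusted p = 0.175) without Scn1a+/- replicate 2. In 129S6 mice Nr4a3 ran from 108 to 139 CPM at P14 and from 93.1 to 102 CPM at P24, without overlap, as for 24.4% of genes. Its log2 fold change there was -0.28 ± 0.10 (SE; edgeR adjusted p = 0.0364; 0.0964 with DESeq2), and the call was lost when any of 6 single libraries was left out (adjusted p up to 0.135).

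Npas4 in F1 mice was at 10.6 to 12.9 CPM at P14, at 12.3, 13.8 and 15.5 CPM in P24 wild type and at 31.4 and 17.4 CPM in P24 Scn1a+/-. Its log2 fold change of 0.63 ± 0.22 (SE; edgeR adjusted p = 0.0210) was smaller without single groups or libraries. It was 0.40 (adjusted p = 0.203) without Scn1a+/- replicate 1 and 0.21 (adjusted p = 0.627) in wild type alone, a setting chosen after seeing the data. Btg2, at 0.33 ± 0.16 (SE; edgeR adjusted p = 0.0940), was called without Scn1a+/- replicate 2, at 0.52 (adjusted p = 0.0145), with no filter, at 0.34 (adjusted p = 0.00415), and without the seizure libraries, at 0.33 (adjusted p = 0.00210).

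**Figure D4:**
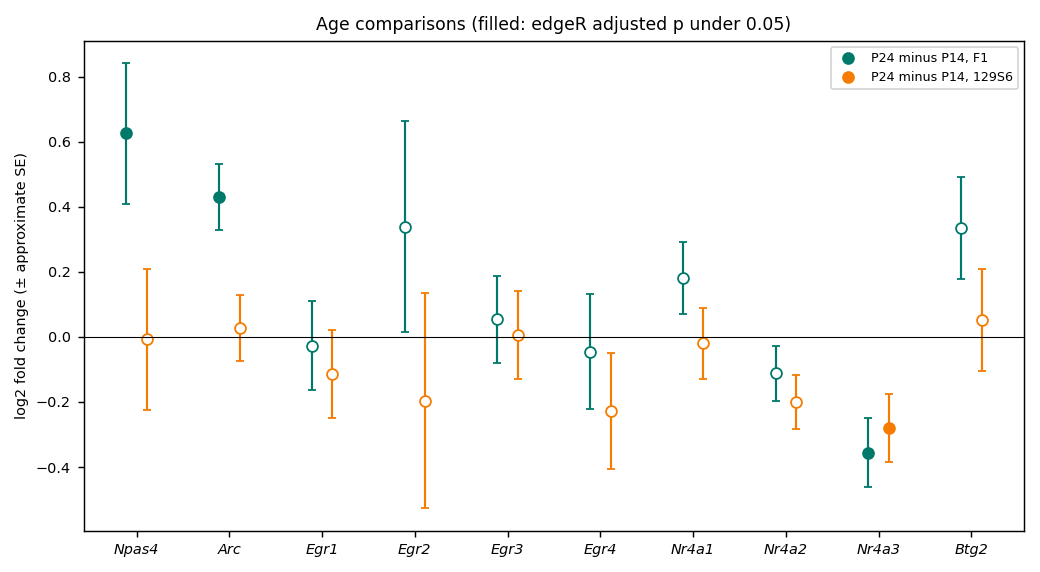
Log2 fold change from P14 to P24 (vertical axis; error bars are approximate SE) of each early gene in F1 and 129S6 mice without recorded seizures. Filled points passed an edgeR adjusted p of 0.05: Npas4 (0.63), Arc (0.43) and Nr4a3 (-0.36) in F1, and Nr4a3 (-0.28) in 129S6.

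Other genes of the same response were read from lists drawn up for these 10, with earlier results of these data known. Of 43 other activity-induced early genes, 42 were tested. In seizure libraries against wild type 32 of them rose and 1 fell, where 12.4% of all genes rose and 10.1% fell. The median log2 fold change was 0.76 against 0.01 over all genes. Rgs2, a brake on G-protein signalling, rose by 1.60 ± 0.10, Fos by 2.43 ± 0.19, Ier5 by 1.52 ± 0.12 and the neurotrophin gene Bdnf by 1.80 ± 0.15 (SE; edgeR adjusted p at most 5.3e-11). The 1 gene that fell was the clock gene Per1, at -0.25. Against Scn1a+/- mice without seizures, 31 of the 42 rose and 0 fell, where 8.72% of all genes rose and 7% fell. Among the 31 were Rgs2 (1.41), Ier5 (1.64), Klf10 (1.57) and Bdnf (1.72).

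Of 25 Npas4-dependent and later response genes, 24 were tested. Against wild type 16 rose and 0 fell, with a median of 0.94, where 12.4% of all genes rose and 10.1% fell. Penk, the enkephalin precursor, was at a mean of 263.6 CPM against 15.9 CPM, a log2 fold change of 4.05 ± 0.14, and Inhba, an activin subunit, was at a mean of 28.1 CPM against 2.505 CPM, a log2 fold change of 3.48 ± 0.23 (SE). The activin receptor gene Acvr1c rose by 2.14 ± 0.12 and Rgs4 by 1.62 ± 0.09 (SE; edgeR adjusted p at most 6.3e-13 for the 4). Bdnf and Homer1 stand in both lists. Against Scn1a+/- mice without seizures 17 rose and 1 fell, where 8.72% of all genes rose and 7% fell. Among those that rose were Penk (3.81), Rgs4 (1.52), Acvr1c (1.92) and Nptx2 (2.80).

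Upstream genes, partners and Arc-binding genes are set beside the 12.4% of all genes called higher and 10.1% called lower against wild type. Of 30 regulators (CREB, SRF, MEF2, their coactivators and kinases), 4 rose, a share near that of all genes, and 9 fell against wild type, with a median of -0.11. Camk4, the nuclear calcium kinase that phosphorylates CREB, was at -0.58 ± 0.07, Camk2g at -0.49 ± 0.06, Mapk3 at -0.35 ± 0.06 and the SRF coactivator Mkl2 at -0.37 ± 0.08 (SE; edgeR adjusted p at most 9.9e-04). Creb1, Elk3, Mef2d and Rps6ka3 were the 4 that rose. Srf itself was at 0.08 ± 0.09 (SE; edgeR adjusted p = 0.613). Against Scn1a+/- mice without seizures 3 rose and 6 fell, where 8.72% of all genes rose and 7% fell. Among those that fell were Camk4 (-0.50), Camk2g (-0.41), Mapk3 (-0.37) and Camk2a (-0.35).

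Of 12 partner, corepressor and co-receptor genes, 1 rose and 1 fell: Nab1, an inhibitor of Egr proteins, at 0.40 ± 0.09, and Rxra, a partner receptor of Nr4a1 and Nr4a2, at -0.39 ± 0.09 (SE; edgeR adjusted p = 0.00185 and 0.00155). Of 15 Arc-binding and endocytosis genes, 1 rose (Ap2m1, 0.25 ± 0.08) and 2 fell (Iqsec2, -0.33 ± 0.06, and Dnm3, -0.32 ± 0.10; SE; edgeR adjusted p = 0.0185, 2.4e-04 and 0.0161). The counts for partners and for Arc-binding genes are not above the 22.5% of all genes called.

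**Figure D5:**
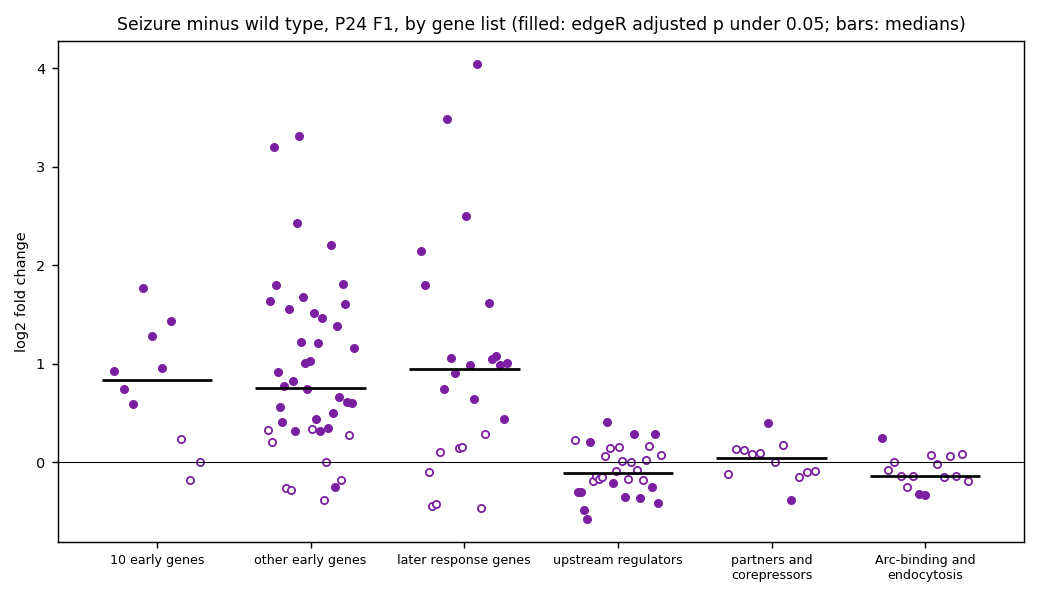
Log2 fold change, seizure minus wild type in P24 F1 (vertical axis), of every tested gene of 6 lists. Filled points passed an edgeR adjusted p of 0.05 and bars are medians: 0.83 for the 10 early genes, 0.76 for other early genes, 0.94 for later response genes and -0.11 for upstream regulators.

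With age, where 19% of all genes rose and 19.4% fell in F1 and 17.3% rose and 17.1% fell in 129S6, the lists differed. From P14 to P24 in F1, 7 of the 42 other early genes rose and 5 fell (median -0.02), and in 129S6 5 rose and 8 fell (median -0.06). Of the 30 upstream regulators 16 rose and 3 fell in F1 (median 0.20), and 14 rose and 3 fell in 129S6 (median 0.15). Camk4 fell by 1.05 ± 0.05 in F1 and 0.79 ± 0.05 in 129S6 on the log2 scale (SE; edgeR adjusted p = 1.1e-16 and 5.4e-14).

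Summed markers of dentate granule cells, astrocytes, neocortex and striatum, and thalamus and habenula did not overlap between seizure and wild-type libraries, and those of the other 6 lists did. Of all genes tested, 31.4% did not overlap, 12.4% were called higher and 10.1% were called lower in this comparison. The summed level of 10 dentate granule cell markers was 573 to 689 CPM in seizure libraries and 770 to 818 CPM in wild type, and 6 of the 10 fell while 2 rose. That of 8 CA1 markers was 581 to 794 CPM against 782 to 895 CPM, with 5 of 8 lower. That of 8 choroid plexus markers was 678, 1289 and 652 CPM in seizure replicates 1, 2 and 3, against 947 to 1035 CPM in wild type, with replicate 2 above wild type and the others below. Astrocyte markers summed to 8833 to 10040 CPM against 7490 to 8120 CPM, with 4 of 10 higher and 4 lower, and microglia markers to 503 to 630 CPM against 508 to 552 CPM. The summed level of 10 pan-neuronal markers was 5592, 5009 and 6818 CPM in the seizure libraries against 5610 to 6289 CPM. The 10 thalamic and habenular markers summed to 212 to 224 CPM against 225 to 254 CPM, with 1 of 9 tested higher and 5 lower. The 14 neocortical and striatal markers summed to 274 to 326 CPM against 328 to 349 CPM, and 12 endothelial and pericyte markers to 292 to 331 CPM against 301 to 317 CPM. Blood and leukocyte markers were near 0, at a summed 9.69 to 15.6 CPM against 11.3 to 13.9 CPM, with 4 of 11 at 0 in every seizure library. In Scn1a+/- mice without seizures the dentate sum was 798 to 833 CPM and the choroid plexus sum 670 to 764 CPM. Their part in the early gene differences was not tested.

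The genes whose levels followed each member most closely were ranked by Pearson's r of log2(CPM + 0.5) over the 25 libraries, as a description, since all genes share the libraries, their depth and the 3 seizure libraries. Npas4 was closest to Fos (r = 0.84), Arc to Pcdh8 (0.94), Egr3 to Fosl2 (0.95), and Egr2 to Vstm2b (0.87), with Fosb and Fos next at 0.85 and 0.84. Pcdh8, an activity-induced protocadherin, was also second for Egr3 (0.95). Egr1 was closest to Rangap1 (0.88), Egr4 to Sel1l3 (0.90), Nr4a1 to Kcnma1 (0.78), Nr4a2 to Adgra1 (0.84), Nr4a3 to Dock9 (0.89) and Btg2 to Blvra (0.75).

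Over the 22 libraries without the seizure group, Nr4a3 was closest to Dusp6 (0.93), the ERK phosphatase, Nr4a2 to Lztr1 (0.86), and Btg2 to Ccnl1 (0.72) with Fosb next (0.71). Npas4 was then closest to Wnt10b (0.82), Arc to Ylpm1 (0.83), Egr1 to Slc2a3 (0.77), Egr2 to Snord35b (0.78), Egr3 to Kidins220 (0.82), Egr4 to Ube2ql1 (0.82) and Nr4a1 to Inpp5k (0.74). The other members of the 10 were left out of both rankings, so how closely the 10 followed each other was not examined.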

How the data were processed

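The deposited files are gene counts, 1 file per library, and a table of normalized values that was used only to check labels. Per the submitters' processing notes, the authors used CASAVA, TopHat2 2.1.0 and HTSeq 0.6.1p1 with the mm10 build. The authors' normalized table holds a signal that is count divided by a size factor, read here from its values. By sample title, 6 of its columns match count files of the other genotype, all in P24 129S6, and 19 match their own group. By file name those 6 match their own genotype. Members and lists were chosen with earlier results of these data known. Counts of 25 libraries in 9 groups were fitted in 1 model with edgeR 4.0.16 (R 4.3.3): TMM scaling, genes kept by filterByExpr (minimum count 10), quasi-likelihood tests, Benjamini-Hochberg adjusted p under 0.05. SE is the absolute log2 fold change divided by the square root of F. CPM values use TMM library sizes. Age and strain comparisons average both genotypes without seizures. All libraries are pools, so p-values measure the spread between pools, and each gene has 1 spread shared by all 9 groups. Seizure pools varied more than the others, so p-values of the seizure comparisons may be too small. Nothing says whether replicate pools share mice. All 10 members are named throughout; of each list, up to 4 called genes with the smallest adjusted p, and otherwise the 1 with the smallest p; for likeness, from the closest 3 genes (1 of these is not reported here). Fosb, Srf, and the list genes named as exceptions were picked with their values known. Transcript lengths came from GENCODE vM39. Printed sequences end before the first 20 bases held by a transcript of the gene, or are 30 bases from the middle of the span of its sites. For Nr4a2 those 30 bases hold 1 of its 4 cores. Alternatives were other scaling, no filter, DESeq2 1.42.0, only the libraries compared, no seizure libraries, each library left out, and a pseudocount of 2. The test of seizure against wild type was checked on simulated data with the same spread in every group. That check does not cover the wider spread of the seizure pools.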

Additional observations from a re-analysis of the deposited data

How the results depend on the processing

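The number of early genes called changed most with the libraries in the fit. With only the libraries compared, 4 were called in seizure against wild type, 2 in seizure against Scn1a+/-, 2 in strain at P24, 5 in age in F1, 2 in age in 129S6 and 1 (Arc) in the age by strain interaction, where 10.4%, 4.05%, 12.6%, 45.6%, 41.6% and 0.268% of all genes were called. Without the seizure libraries, 2 were called in genotype at P24 F1, 2 in strain at P24, 5 in age in F1, 2 in age in 129S6 and 1 in that interaction, where 1.27%, 13.4%, 44.9%, 41.1% and 0.268% of all genes were called. Without the seizure libraries and P24 F1 Scn1a+/- replicate 1, a choice made after seeing the data, 3, 2 and 5 were called in genotype at P24 F1, strain at P24 and age in F1, where 3.48%, 17.8% and 41.7% of all genes were called; the genotype values there rest on 1 Scn1a+/- library, assumed to vary like the other groups. With no filter 2 were called in each of genotype at P24 F1, strain at P24 and age in 129S6 (0.043%, 5.6% and 26% of all genes), with library totals only 2 in age in 129S6 (34.2%), and with DESeq2 0 there (30.6%). Leaving out 1 library at a time gave 2 to 7 called in seizure against Scn1a+/-, 0 to 2 in age in 129S6, 6 to 8 in seizure against wild type and 2 to 3 in age in F1. The share of all genes called in those fits was not recorded, so the ranges only describe the 10 genes. In the fit to all 25 libraries, 3579 of 15912 genes were called in seizure against wild type and 2502 in seizure against Scn1a+/-. With only the libraries compared these were 1615 and 633. Genotype in P24 F1 went from 0 to 200 genes without the seizure libraries, 9 with no filter and 3 with only the libraries compared. Among values called in either fit, the direction reversed in 4 cases, none of them called in the fit to all 25 libraries. Btg2 in seizure against Scn1a+/- went from 0.03 to -0.47 without seizure replicate 1. Nr4a3 in seizure against wild type went from 0.00 to -0.28 without seizure replicate 3. Without the seizure libraries and Scn1a+/- replicate 1, genotype at P24 F1 went from 0.02 to -0.30 for Egr3 and 0.07 to -0.32 for Nr4a3. The cause was not tested. The other libraries left out in turn gave 0.46 (without Scn1a+/- replicate 1), 0.19 (without seizure replicate 1), 0.29 and 0.39 (without Scn1a+/- replicate 2) as the opposite ends of those 4 ranges. No paired analysis was possible because the sample titles carry 1 running number across all 25 libraries, so groups share no replicate numbers. Under a pseudocount of 2, 25 of the 30 likeness picks over 25 libraries and 28 of the 30 over 22 were shared. Counts of 8 to 261 per library limit the precision for Egr2. Each group holds only 2 or 3 pools, and the seizure pools 3 to 4 mice each.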
